A study of Mus musculus with 3 samples.

Results

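Nonclassical monocytes were examined in droplet-based single-cell libraries of peripheral blood mononuclear cells (PBMCs) of mice. The cells were chosen by their counts of unique molecular identifiers (UMIs, which count captured RNA molecules). A barcode belonged to the group when it held at least 1 UMI of Csf1r and at least 2 UMIs summed over Ace, Treml4, Adgre4 and Cd300e, and when that sum was at or above the sum over the classical monocyte genes Ccr2, F13a1, Fn1 and Vcan. At most 1 UMI was allowed over Cd79a and Cd79b of B cells, and at most 1 over Cd3d, Cd3e and Cd3g of T cells. Of 28333 barcodes that passed the filters on genes, mitochondrial and haemoglobin RNA, from 44212 deposited, 690 were nonclassical monocytes: 48 from young, 438 from aged and 204 from aged-GA mice.

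The study compared female C57BL/6 mice of 8 weeks (young), of 16 months (aged), and of 16 months given glycyrrhizic acid (GA, a triterpenoid saponin of licorice root) for 1 month (aged-GA). GA was given every other day at 5 mg/kg by tail vein injection, and the controls received phosphate-buffered saline. Each group was 1 library, and how the blood of its mice was combined is not stated. A difference between groups therefore cannot be told apart from a difference between libraries, no test was run, and all intervals are exact 95% intervals that cover counting error only.

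Blood monocytes of the mouse fall into classical cells with high Ly6C, which leave the blood for inflamed tissue, and nonclassical cells with low Ly6C, which crawl along the endothelium of small vessels and take up debris there. Nonclassical monocytes arise mainly from classical ones, with Notch signals from the endothelium, and depend on the transcription factors NR4A1 and C/EBPβ and on survival signals through the CSF1 receptor. They are known for expression of the integrin LFA-1, CD43 and the Fc receptor FcγRIV.

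The genes that chose the cells lie on mouse chromosomes 11 and 17 (GRCm38, GENCODE M21 annotation). Ace, angiotensin-converting enzyme, spans chr11:105967945-105989964, and Cd300e, an activating receptor, spans chr11:115051917-115062177 on the minus strand. Treml4, a receptor that binds dead cells, spans chr17:48264295-48275360, and Adgre4, an adhesion G-protein-coupled receptor, spans chr17:55749984-55853662. Summed over the members of a library and scaled to a common total of 1000000 UMIs (CPM), Ace stood at 716 CPM (young), 755 (aged) and 775 (aged-GA). Treml4 stood at 489, 473 and 450 CPM, Adgre4 at 609, 508 and 517 CPM, Cd300e at 171, 305 and 269 CPM and Csf1r at 716, 866 and 837 CPM, in the same order. These values describe the choice of the cells and are not results.

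The sum of the 4 marker genes had a median of 9 (young), 9 (aged) and 9.50 (aged-GA) UMIs, and ran from 2 to 33, 58 and 44 UMIs. No UMI of the 4 classical genes was found in 41 of the 48 young members, 367 of the 438 aged ones and 177 of the 204 aged-GA ones. Few cells lay near the threshold: 1 young, 16 aged and 7 aged-GA members had a sum of exactly 2, and 3, 14 and 18 barcodes met every other condition with a sum of 1. In the aged library, the integrin gene Itgal stood at 1510 CPM just inside and 974 CPM just outside the threshold. In the aged-GA library it stood at 461 and 279 CPM, and the neutrophil gene S100a8 at 3090 and 46798 CPM, so the barcodes just outside carried much neutrophil RNA.

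The members held 233322 UMIs (young), 2362470 (aged) and 1160783 (aged-GA), with medians of 4294, 4130 and 4620 UMIs and of 1736, 1816 and 1952 genes per cell. The smallest level that 3 UMIs can give was 12.9 CPM (young), 1.27 (aged) and 2.58 (aged-GA), so the young values are the least precise. Mitochondrial genes gave a median of 2.71%, 1.81% and 2.65% of the UMIs of a member. The libraries shared few barcodes (52 young with aged, 62 aged with aged-GA, 50 young with aged-GA), and 1 barcode was a member in both the aged and the aged-GA library.

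RNA of neutrophils was present in some members and differed between the libraries. S100a8 and S100a9, abundant calcium-binding proteins of neutrophils, made up at least 0.5% of the UMIs in 1 young member (2.08%), 38 aged ones (8.68%) and 32 aged-GA ones (15.7%). In the aged library those members had a median of 9163 UMIs and the others 3988. In the aged-GA library the medians were 6084 and 4406 UMIs. Summed over these members, Itgal stood at 1106 CPM (aged) and 1269 CPM (aged-GA), against 1370 and 1486 CPM in the other members. The 4 nonclassical genes of the rule stood at 1522 and 1489 CPM, against 2141 and 2154 CPM. These sums do not hold for each cell: 1 such aged-GA member, with 2449 UMIs, had 0 UMIs of Itgal and of Nr4a1. Without the members at or above 0.5%, S100a8 stood at 0, 96.4 and 122 CPM and S100a9 at 4.41, 102 and 134 CPM in the young, aged and aged-GA libraries. Where a value without these barcodes is printed below it stands beside the value over all members. Shares of cells, counts of genes past 2-fold and ratios of listed genes were also computed without them, and not every such value is printed.

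**Figure D1:**
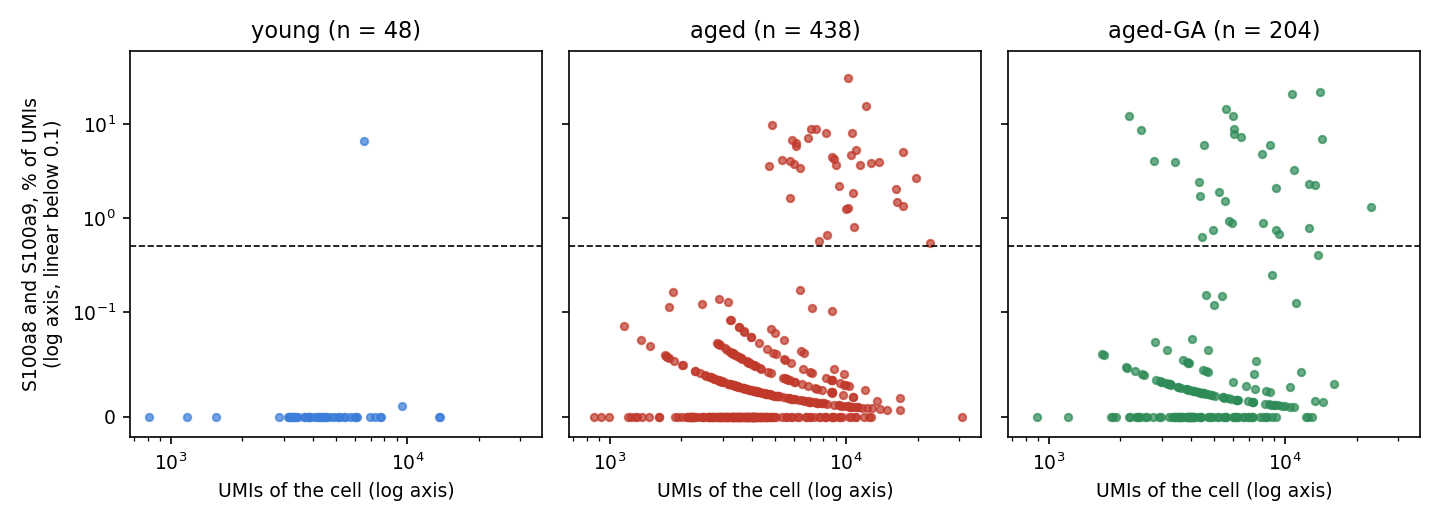
Each point is 1 nonclassical monocyte of the young, aged or aged-GA library, plotted by its total UMIs (x axis, log scale) and the percent of them from S100a8 and S100a9 (y axis). The dashed line marks 0.5%, and 1 young, 38 aged and 32 aged-GA cells lie at or above it.

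Nonclassical monocytes made up 0.575% of the young cells (interval 0.424 to 0.761), 4.79% of the aged cells (4.37 to 5.25) and 1.88% of the aged-GA cells (1.63 to 2.16). The share was highest in the aged library and lowest in the young one, and the 3 intervals did not overlap. The aged share was 8.34-fold the young share, a log2 ratio of 3.06 (2.63 to 3.52), and the aged-GA share was 0.392-fold the aged share, a log2 ratio of -1.35 (-1.60 to -1.11). With a screen for mixed cells, which removed members above 2 times the median UMIs of their library or with at least 2 UMIs of B, T or natural killer cell markers, 38 young, 218 aged and 77 aged-GA members stayed, with shares of 0.455%, 2.39% and 0.710%, and the log2 ratio of aged over young was 2.39 (1.89 to 2.93). The B cell markers of this screen include immunoglobulin genes. When these were left out, a change made after seeing the data, the screen removed 3, 88 and 38 members in place of 10, 220 and 127, and the ratio was 2.83. Without the members rich in neutrophil RNA the log2 ratios were 2.96 (aged over young) and -1.46 (aged-GA over aged). All these values rest on shares of the cells of a library, which also move with the number of lymphocytes and neutrophils in it.

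Classical monocytes, found by the mirrored rule, numbered 2 (young), 668 (aged) and 127 (aged-GA). Their shares were 0.0239% (0.00290 to 0.0865), 7.31% (6.79 to 7.86) and 1.17% (0.977 to 1.39). Nonclassical cells were thus 96.0% (86.3 to 99.5) of the 50 young monocytes, 39.6% (36.7 to 42.6) of the 1106 aged ones and 61.6% (56.2 to 66.9) of the 331 aged-GA ones. For each classical cell there were 24.0 (young), 0.656 (aged) and 1.61 (aged-GA) nonclassical ones. Both kinds of monocyte were most frequent in the aged library, and the classical share differed more between the libraries than the nonclassical one.

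**Figure D2:**
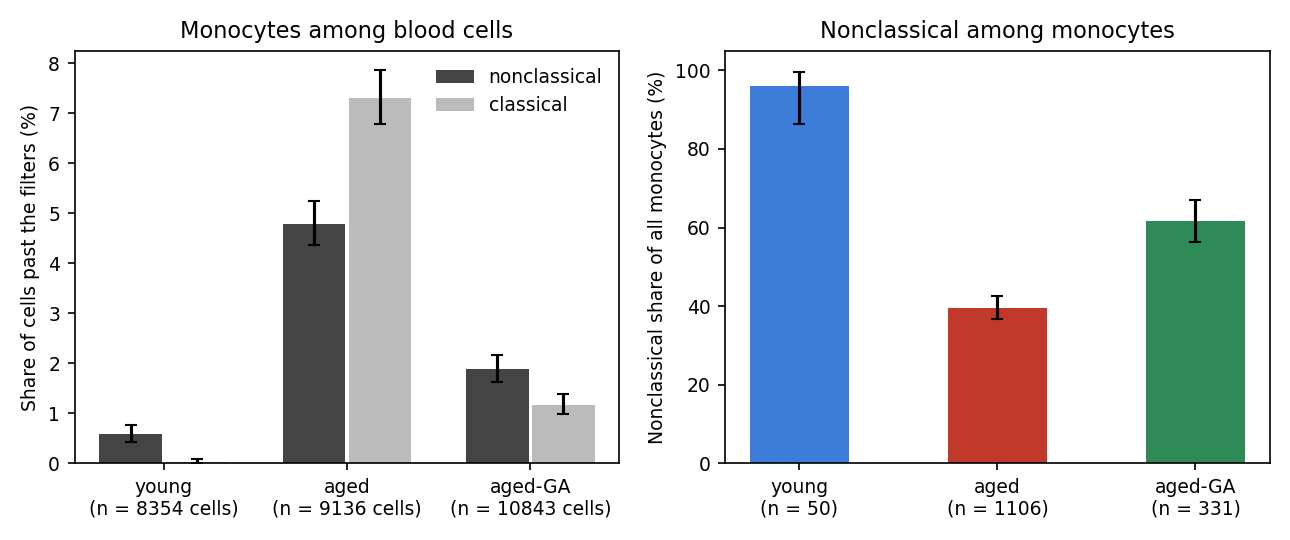
Nonclassical and classical monocytes as a percent of the cells of the young, aged and aged-GA libraries (1 library each), with exact 95% counting intervals. Nonclassical monocytes stand at 0.575%, 4.79% and 1.88%, and classical ones at 0.0239%, 7.31% and 1.17%.

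The label of the cells was checked on genes that the rule did not use. Itgal, the LFA-1 chain, stood at 1329 CPM (young), 1327 (aged) and 1440 (aged-GA), and at 168 and 209 CPM in the aged and aged-GA classical cells. Spn, which encodes CD43, stood at 441, 524 and 506 CPM against 40.3 and 47.7 CPM, and Fcgr4, which encodes FcγRIV, at 536, 523 and 440 CPM against 60 and 47.0 CPM. All 3 genes were at similar levels in the 3 libraries and far above the classical cells. The eosinophil-type ribonuclease gene Ear2 (411, 575 and 537 CPM), the muscle-type enolase gene Eno3 (390, 373 and 377 CPM) and the fatty acid carrier gene Fabp4 (579, 632 and 507 CPM) were likewise far above the classical cells, with 40.8, 9.77 and 12.7 CPM in aged classical cells.

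Some transcription factors were part of the same picture. Of the 15 monocyte factors compared, 3 were at least 2-fold higher than in classical cells and 1 lower. Over all genes compared the shares were 5.95% and 3.19%. Nr4a1 stood at 1187 CPM (young), 1698 (aged) and 1494 (aged-GA), against 316 and 368 CPM in aged and aged-GA classical cells. Cebpb stood at 4354, 4331 and 4465 CPM, against 2425 and 2945 CPM. Both factors were higher in nonclassical than in classical cells of the aged and aged-GA libraries. Tcf7l2, a factor of Wnt signalling, stood at 330, 251 and 225 CPM against 13.2 and 13.5 CPM, and Hes1, a Notch target, at 210, 163 and 152 CPM against 10.5 and 19.9 CPM.

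Genes of classical monocytes outside the rule were lower than in classical cells in part. Ly6c2, the Ly6C antigen, stood at 21.4 CPM (young), 31.3 (aged) and 40.5 (aged-GA), against 1170 and 869 CPM in aged and aged-GA classical cells. Chil3, a chitinase-like protein, stood at 317, 328 and 199 CPM against 2037 and 1334 CPM. Both stood far below the classical cells. Lyz2, lysozyme, was abundant in both kinds of monocyte, at 7693, 6208 and 6150 CPM against 24331 and 23565 CPM.

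Genes were compared only where their mean level was at least 50 CPM, and a ratio of 2-fold or more was counted. Nonclassical over classical, 179 of 3008 genes (5.95%) were at least 2-fold higher in all 3 libraries and 96 (3.19%) at least 2-fold lower. Of the list of 25 nonclassical monocyte genes outside the rule, 24 could be compared and 17 were higher, 0 lower. Of the classical list, 11 of 19 were lower. Of the interferon-stimulated genes, 10 of 13 were lower, with Isg15 at 25.7, 33.4 and 21.5 CPM in members. The same contrast chose the cells, and the young classical level rests on 2 cells, so these counts are a description only.

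**Figure D3:**
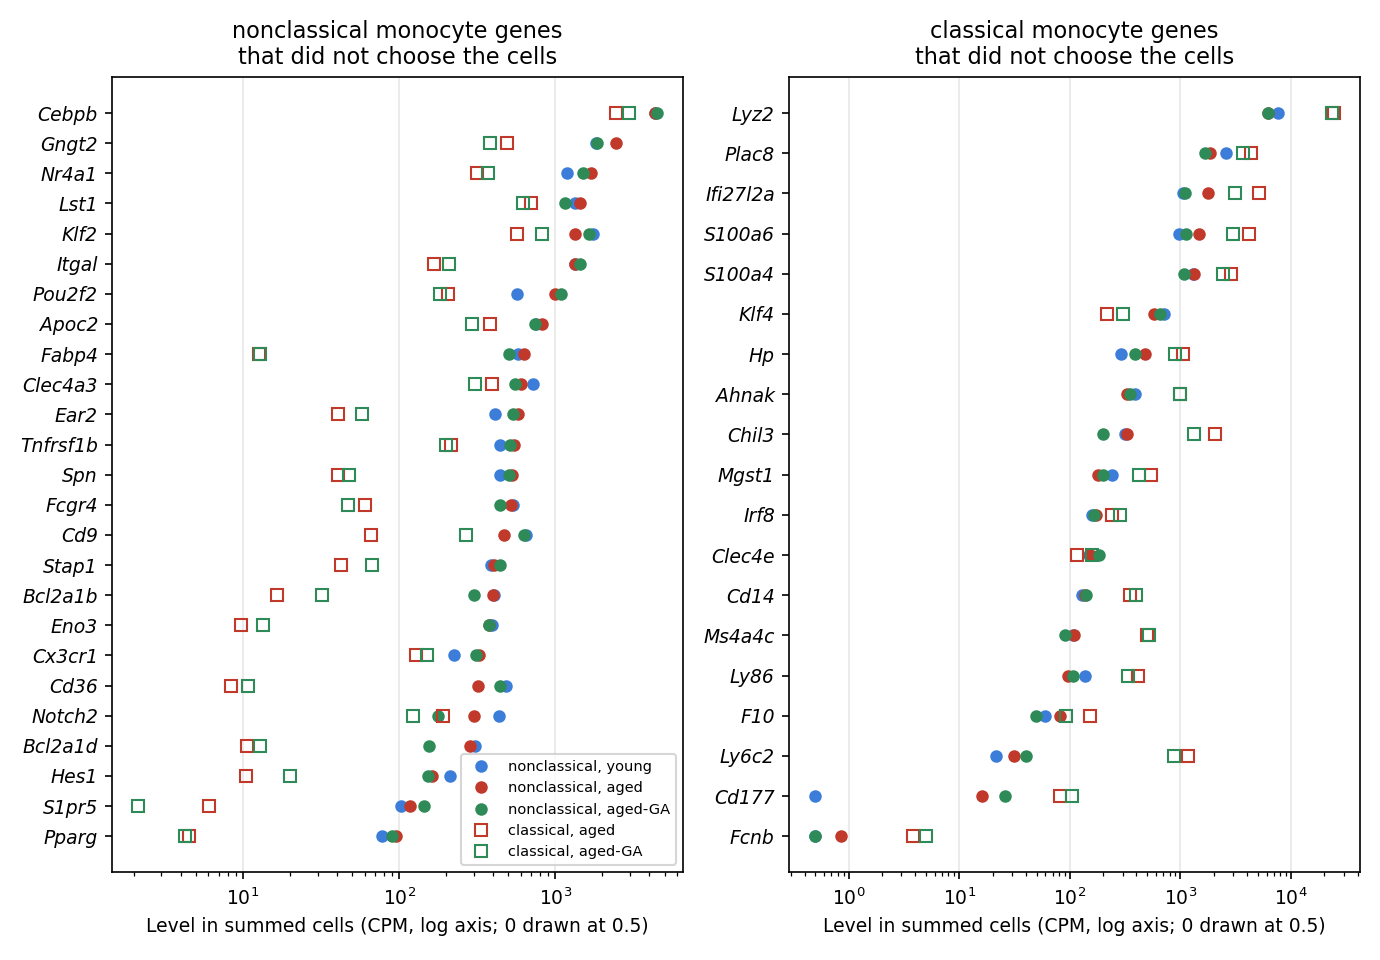
Levels (CPM, log axis) of nonclassical and classical monocyte genes outside the rule, in the nonclassical cells of the 3 libraries and the classical cells of the aged and aged-GA libraries. Itgal, Spn, Fcgr4, Eno3 and Fabp4 lie far above the classical cells and Ly6c2 and Chil3 far below them.

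Detection of identity genes was compared at equal depth. After each cell was thinned to 2000 UMIs, which left out 3 young, 23 aged and 7 aged-GA members, Itgal was found in 88.9% (young), 88.4% (aged) and 86.3% (aged-GA) of the members (100%, 97.0% and 96.1% without thinning). Classical cells of the aged and aged-GA libraries, thinned likewise, had Itgal in 24.5% and 30.7%, and B cells of the 3 libraries in 5.33%, 9.31% and 8.22%. Nr4a1 was found in 91.1%, 94.0% and 89.8% of thinned members (100%, 97.7% and 97.1% without thinning), in 42.6% and 45.7% of aged and aged-GA classical cells, and in 7.09%, 8.39% and 9.57% of B cells. Other identity genes were found in fewer members. Hes1 was found in 26.7%, 22.9% and 23.4% of thinned members (45.8%, 41.8% and 44.1% without thinning), against 1.5% and 3.15% of aged and aged-GA classical cells.

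Cells of other types were looked for by their markers. Conventional dendritic cell markers had 0 (young), 5 (aged) and 20 (aged-GA) UMIs, with 18 of the 20 in 1 cell and Cd209a the most abundant. Siglech and the other plasmacytoid marker were at 0 in all libraries. The tissue macrophage list was at 111, 120 and 137 CPM, nearly all of it Adgre1 (111, 116 and 137 CPM), which blood monocytes also express, while Vsig4, Timd4, Cd5l, C1qa and Marco were at 0 in every library. Natural killer cell markers summed to 12.9, 83.8 and 208 CPM, with 87.6% of the aged-GA sum in 1 cell and Gzma the most abundant. T cell markers summed to 25.7, 32.6 and 56.9 CPM, with Trbc2 the most abundant.

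Markers of B cells summed to 159 CPM (young), 286 (aged) and 380 (aged-GA), with Ighm the most abundant in young and Igkc in the other libraries. Platelet markers summed to 4.29, 91.4 and 186 CPM, led by Pf4, plasma cell markers to 0, 32.2 and 38.8 CPM, led by Igha, and basophil markers to 0, 11.9 and 19.0 CPM. Red cell markers were at 5786, 7281 and 7056 CPM, led by Hbb-bs, with 81.7% of the young sum in 1 cell. Neutrophil markers summed to 2032, 9047 and 14289 CPM. Of the young sum 96.8% came from 1 cell, and in the aged and aged-GA libraries the richest cell held 18.4% and 26.5%. Every marker list named above with UMIs in the older libraries, except that of red cells, were lowest in the young and highest in the aged-GA library. The ratios below were also computed without the neutrophil-rich members and with the screen for mixed cells, and some of these values are given. The part of platelet, plasma cell and basophil RNA in the ratios was not tested separately.

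Stretches of promoter DNA are shown for the identity genes Adgre4, Ear2 and Fcgr4 and for the Bcl2a1 genes, because these windows held letters that C/EBP or PU.1, factors of monocytes, are known to bind. They come from RefSeq (GRCm38.p6), and each is 80 bases from the window before the RefSeq start of the gene, 5′ to 3′ on the strand of the gene. Capitals mark TTGCNNAA (C/EBP) on either strand in the stretches of Adgre4 and Ear2, GAGGAAGT (PU.1) on either strand in those of the Bcl2a1 genes, and in that of Fcgr4 both an interferon-stimulated response element and GAGGAAGT on the other strand.
Adgre4, chr17:55749902-55749981, plus strand: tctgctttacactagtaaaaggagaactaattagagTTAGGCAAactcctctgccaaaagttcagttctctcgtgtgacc
Ear2, chr14:44102528-44102607, plus strand: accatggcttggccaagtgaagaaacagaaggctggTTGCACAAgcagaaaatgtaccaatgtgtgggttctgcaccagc
Fcgr4, chr1:171018846-171018925, plus strand: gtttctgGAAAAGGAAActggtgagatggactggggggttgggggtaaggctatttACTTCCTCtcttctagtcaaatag
Bcl2a1a, chr9:88956780-88956859, plus strand: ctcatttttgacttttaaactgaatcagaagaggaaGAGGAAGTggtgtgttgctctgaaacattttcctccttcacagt
Bcl2a1b, chr9:89199089-89199168, plus strand: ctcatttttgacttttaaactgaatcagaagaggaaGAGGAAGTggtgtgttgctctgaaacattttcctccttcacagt
Bcl2a1d, chr9:88731911-88731990, minus strand: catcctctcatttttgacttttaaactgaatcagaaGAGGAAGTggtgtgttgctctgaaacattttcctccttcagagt

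Windows of 250 bases before to 50 bases after the start were found for 30 of 37 named genes, and were searched on both strands. TTGCNNAA was found in 2 of the 30 (Adgre4 and Ear2) and in 10.8% of 32851 windows of all genes. GAGGAAGT was found in 5 (Adgre4, Fcgr4, Bcl2a1a, Bcl2a1b and Bcl2a1d), against 3.20% of all windows, and the interferon-stimulated response element in 2 (Fcgr4 and Tnfrsf1b), against 3.44%. AAAGGTCA, letters that NR4A1 is known to bind, was found in 0 of 30 and in 1.51% of all windows. The printed stretches of Bcl2a1a and Bcl2a1b were the same in 80 of 80 bases, and that of Bcl2a1d had the same base as these at 60 of 80 positions, or at 43 of 44 from the capitals on. Positions were compared in order without alignment. Bcl2a1a and Bcl2a1b hold an extra gaggaa before the capitals, which shifts the bases before it against Bcl2a1d. The count of 60 therefore understates the sequence that the Bcl2a1 genes share. These genes are known copies of 1 ancestral gene, so their matches are not separate and reads may be split between them.

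In aged over young members, 64 of 3080 genes (2.08%) were at least 2-fold higher and 45 (1.46%) at least 2-fold lower, with a median log2 ratio of 0.03 over all 3080. Without the neutrophil-rich members, 63 of 3067 were higher and 49 lower, of which 47 and 38 were among the first ones. When each gene lost the barcode richest in it, which takes more from 48 young than from 438 aged members, 122 of 2810 genes were higher and 19 lower, with a median of 0.19. Of the 25 nonclassical genes outside the rule, 0 were 2-fold higher and 0 lower. These counts were near the shares of all genes (2.08% and 1.46%), and the median log2 ratio was 0.06. Classical genes (0 of 16 either way, median 0.02), transcription factors of monocytes (0 of 15, -0.01), lysosomal genes (0 of 17, 0.03) and interferon-stimulated genes (0 of 7, -0.11) had medians near that of all genes as well. Lists of cell function or of other cell types in which genes passed 2-fold were those of inflammatory feedback, glucocorticoid response, MHC class II, survival, adhesion, S100, neutrophil, p53, immediate early, complement and B cell genes.

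Of the 12 cytokine, chemokine and NF-κB feedback genes compared, 3 were 2-fold higher in aged over young (Ccl3, Ccl4 and Ccl9) and 4 lower (Nfkbia, Nfkbiz, Tnfaip3 and Tnf), with a median of -0.26. Of all genes compared, 2.08% were 2-fold higher and 1.46% lower. Without the neutrophil-rich members 1 of 10 was higher and 5 lower, with a median of -0.98. Nfkbia, which encodes the inhibitor IκBα, stood at 3227 CPM (young), 1026 (aged) and 1250 (aged-GA), a log2 ratio of -1.65 (-1.77 to -1.53) for aged over young. The young level lay above the other libraries, and the cells overlapped: the median per cell was 3058 CPM among young cells (quartiles 1386 and 4252), 831 among aged ones (439 and 1545) and 1093 among aged-GA ones (554 and 1605). After thinning, Nfkbia was found in 93.3% (young), 76.4% (aged) and 83.8% (aged-GA) of the members (100%, 88.4% and 93.6% without thinning), and in 75.9%, 60% and 58.6% of B cells. The same ratio was -0.79 in B cells and -0.05 in T cells.

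Nfkbiz, a nuclear IκB protein, stood at 720, 302 and 345 CPM (-1.25, aged over young), and Tnfaip3, which encodes the deubiquitinase A20, at 300, 108 and 118 CPM (-1.46). Tnf itself was rare, with 26 (young), 54 (aged) and 16 (aged-GA) UMIs, or 111, 22.9 and 13.8 CPM (-2.24, -2.99 to -1.55). Irf1, a factor induced by interferon-γ, stood at 261, 80.0 and 115 CPM (-1.70), and Icam1, an adhesion ligand induced by NF-κB, at 81.4, 30.1 and 17.2 CPM (-1.41). All 5 genes were highest in the young library.

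Glucocorticoid-responsive genes were also lower in aged members, 7 of 8 by some amount and 2 by 2-fold, with a median of -0.62 that was -0.56 without the neutrophil-rich members. Of all genes compared, 47.3% were lower by some amount and 1.46% by 2-fold. Summed over the list, the level was 2374 CPM in young and 1505 CPM in aged members, and it was lower in aged lymphocytes too, at 2238 and 1087 CPM in B cells and 1220 and 755 CPM in T cells. Fkbp5, which encodes a chaperone partner of the glucocorticoid receptor, stood at 253 CPM (young), 77.5 (aged) and 88.7 (aged-GA) (-1.69, -2.14 to -1.26). It was found in 40.0% (young), 14.5% (aged) and 13.2% (aged-GA) of the members after thinning (66.7%, 30.1% and 29.9% without), against 5.71%, 5.13% and 5.04% of B cells. Its ratio was -0.34 in B cells and 0.32 in T cells. Tsc22d3, which encodes the leucine zipper protein GILZ, stood at 609, 299 and 384 CPM (-1.02), with -1.32 in B cells and -1.21 in T cells.

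Growth arrest and stress genes had the same order in part. Gadd45b, a stress sensor, stood at 309, 78.3 and 62.9 CPM in young, aged and aged-GA members (-1.96, aged over young), with -1.79 in B cells and -1.14 in T cells. Cdkn1a, the cyclin-dependent kinase inhibitor p21, stood at 480, 316 and 289 CPM (-0.60), and Cdkn2a, which encodes p16, had 0 UMIs in every library, which allows up to 12.9, 1.27 and 2.58 CPM. In the list of kinase inhibitors and p53 targets 1 of 9 was higher (Mdm2, 1.13) and 2 lower (Gadd45a, -1.06, and Gadd45b), with a median of -0.17. Of all genes compared, 2.08% were 2-fold higher and 1.46% lower. Of the 14 immediate early genes 0 were 2-fold higher and 1 (Ier3, -1.69) lower, with a median of -0.13. AY036118, an uncharacterised transcript, stood at 3964, 840 and 762 CPM (-2.24). Its ratio was much the same in B cells (-2.08) and T cells (-2.20), so the difference was not particular to the monocytes. Further genes among the 10 with the lowest ratios had few UMIs in young members: Tmcc3 stood at 94.3, 15.2 and 26.7 CPM (-2.55), Serpinb2, a plasminogen activator inhibitor, at 103, 23.3 and 30.2 CPM (-2.10) and Ckb, a creatine kinase, at 85.7, 29.6 and 49.1 CPM (-1.50).

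**Figure D4:**
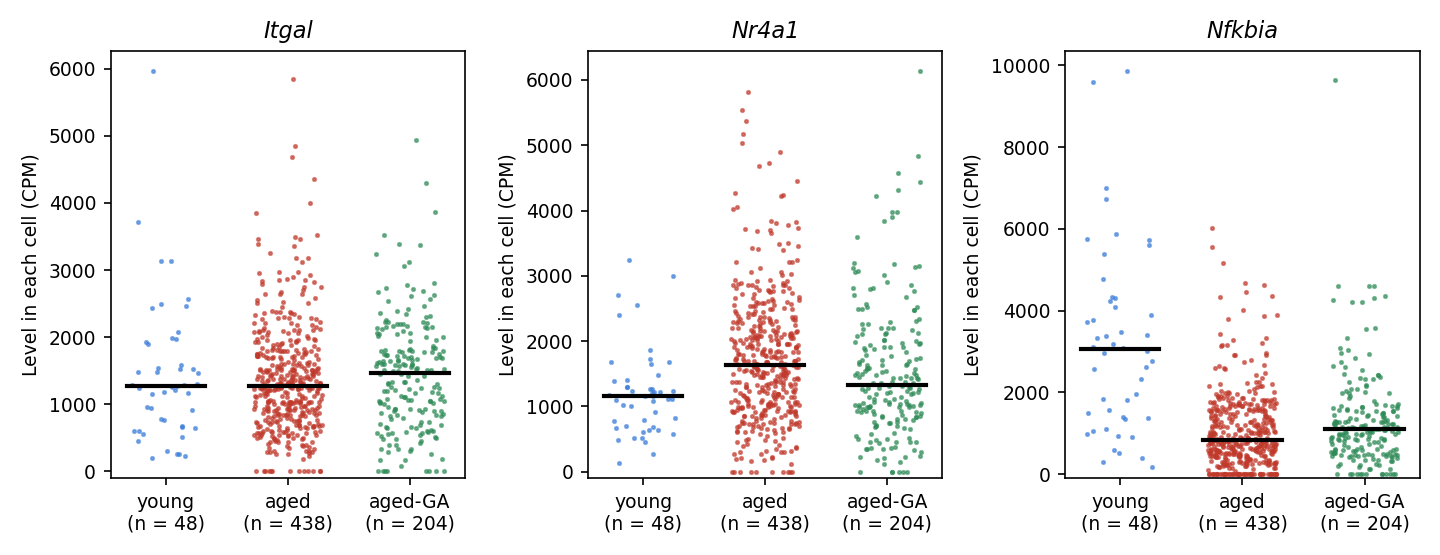
Levels of Itgal, Nr4a1 and Nfkbia in each nonclassical monocyte (CPM of the cell) by library, with black bars at the medians. The medians of Itgal are 1270, 1271 and 1471 CPM in young, aged and aged-GA cells, and those of Nfkbia 3058, 831 and 1093 CPM.

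Other genes were higher in aged members. Pecam1, the endothelial and leukocyte adhesion molecule CD31, stood at 51.4 CPM (young), 151 (aged) and 112 (aged-GA) (1.53, 0.73 to 2.52, aged over young). Bcl2, which protects from apoptosis, stood at 77.1, 164 and 162 CPM (1.08, 0.41 to 1.86), and C3, the central complement component, at 60, 153 and 121 CPM (1.33, 0.58 to 2.23). Each was lowest in the young library. Pou2f2, a factor of the octamer family, stood at 570, 993 and 1078 CPM (0.80, 0.55 to 1.06), with 1.03 in B cells and 2.03 in T cells. Fcgr2b, the inhibitory Fc receptor, was lower, at 244, 115 and 103 CPM (-1.08).

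Of all genes compared in aged over young, 2.08% were 2-fold higher and 1.46% lower. A single gene past 2-fold in a short list is not read as a result of the list. Of the 11 genes of CSF1R signalling and survival, 1 (Bcl2) was 2-fold higher and 0 lower in aged over young, with a median of 0.29. Of the 16 adhesion and trafficking genes, 1 (Pecam1) was higher and 1 (Icam1) lower, with a median of 0.14. Of the 10 Fc receptor, complement and phagocytic receptor genes, 1 (C3) was higher and 1 (Fcgr2b) lower, with a median of -0.04. Cx3cr1, the fractalkine receptor that nonclassical monocytes need for survival, stood at 223, 326 and 308 CPM (0.54, 0.14 to 0.98).

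Several genes with high ratios came from few cells. Ccl4, a chemokine, had 0 UMIs in young members and stood at 119 CPM (aged) and 193 CPM (aged-GA) in the older ones, at least 9.25-fold higher in aged than in young against a floor of 3 UMIs over the library. A single cell held 36.3% of the aged and 53.6% of the aged-GA UMIs of Ccl4. Ngp, a neutrophil granule protein, also had 0 UMIs in young members and stood at 117 and 550 CPM (at least 9.09-fold), with 84.8% and 85.6% in 1 cell. Ccl5, a chemokine of T and natural killer cells, had 1 UMI in young members (4.29 CPM) against 152 and 267 CPM (4.86, 2.66 to 10.46), with 28.6% and 69.4% in 1 cell.

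S100a8 stood at 823 CPM (young), 3872 (aged) and 5585 (aged-GA), and S100a9 at 1033, 3847 and 6217 CPM. All 192 young UMIs of S100a8 lay in 1 cell. After thinning, S100a8 was found in 2.22% (young), 28% (aged) and 27.9% (aged-GA) of the members (2.08%, 39.5% and 42.2% without thinning). In B cells it was found in 0.523%, 19.9% and 13.2% and in T cells in 0.466%, 17.0% and 11%. The order of the young and older libraries was thus the same in lymphocytes, which are not known to express it, so no change within the monocytes can be read from it. Of the other S100 genes S100a6 (973, 1469 and 1133 CPM) and S100a4 (1299, 1321 and 1070 CPM) were abundant, and none besides S100a8 and S100a9 passed 2-fold among the 7 compared, with a median of 0.59. Of the 6 neutrophil markers compared, 5 were 2-fold higher in aged over young, against 2.08% of all genes, with a median of 2.69 (2.66 with genes at 0 set to their bound). With the screen for mixed cells 1 of 4 was higher and 1 lower, and the median turned to -0.36, with S100a8 at -0.61 and S100a9 at -1.30. The screen kept the 1 young member rich in neutrophil genes, so these values were set against a single young cell, and with the immunoglobulin genes left out of the screen the median was 0.77. Among the genes with the largest ratios, Retnlg, a resistin-like protein, stood at 51.4, 723 and 659 CPM (3.79), Lcn2, a lipocalin, at 12.9, 122 and 307 CPM (3.15) and Wfdc21 at 12.9, 100 and 121 CPM (2.87). All young UMIs of Lcn2 (3) and Wfdc21 (3) lay in that 1 young cell. With the screen both turned to -0.25, but with its immunoglobulin genes left out they were 1.38 and 0.97. Retnlg stood at 0, 19.7 and 75.7 CPM without the neutrophil-rich members. Ifitm1, an interferon-induced membrane protein, stood at 25.7, 150 and 250 CPM (2.50). After thinning, it was found in 4.44% (young), 13.3% (aged) and 13.7% (aged-GA) of the members. In B cells it was found in 0%, 2.40% and 1.18% and in T cells in 0.0203%, 1.90% and 1.49%. The share was thus lowest in the young library in lymphocytes too.

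MHC class II genes present antigen to CD4+ T cells. H2-Aa stood at 116 CPM (young), 163 (aged) and 308 (aged-GA), H2-Ab1 at 34.3, 165 and 309 CPM and H2-Eb1 at 17.1, 139 and 237 CPM. Of 5 class II genes compared, 2 (H2-Ab1, 2.23, and H2-Eb1, 2.95) were 2-fold higher in aged over young, against 2.08% of all genes. The median was 0.49, or 0.13 with the screen for mixed cells. Summed over the 3 genes, 39 UMIs lay in 12 young cells (25% of members), 1102 in 178 aged cells (40.6%) and 991 in 108 aged-GA cells (52.9%).

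The class II UMIs were uneven between cells. The richest cell held 9 of the young, 196 of the aged and 333 of the aged-GA UMIs, and 3, 7 and 3 cells held 50% of them. No young cell, 21 aged cells and 11 aged-GA cells held at least 10 UMIs. After thinning, H2-Aa was found in 8.89% (young), 10.8% (aged) and 19.8% (aged-GA) of the members (16.7%, 19.4% and 32.4% without thinning), and in 1.16%, 5.52% and 8.42% of T cells, which are not known to express it in mice. The B cell gene Igkc, at 12.9, 125 and 158 CPM, had the same order, and its part in the class II levels was not tested beyond the screens for mixed cells.

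In aged-GA over aged members, which share the aged library with the comparison above, 27 of 3161 genes (0.854%) were at least 2-fold higher and 3 (0.0949%) at least 2-fold lower, with a median log2 ratio of 0.02. Without the neutrophil-rich members, 5 of 3158 were higher and 5 lower, of which 4 and 3 were among the first ones. In the lists of identity genes, counts past 2-fold were near the shares of all genes (0.854% and 0.0949%). Of the 25 nonclassical genes 0 were 2-fold higher or lower (median -0.10), of the 17 classical genes 0 (median -0.04), of the 16 transcription factors 0 (median 0.12) and of the 8 interferon-stimulated genes 0 (median -0.13). The same holds for the genes of Fc receptors, complement and phagocytosis (0 of 10, median -0.06), of lysosomes (median -0.05), of CSF1R signalling and survival (0 of 10, -0.10), of adhesion (0 of 16, 0.05), of kinase inhibitors and p53 targets (0 of 9, 0.04) and of the S100 family (0 of 7, -0.18).

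Immediate early genes, which respond to stimuli within minutes, were higher in aged-GA members in 13 of 13 cases, 1 of them by 2-fold, with a median of 0.31. Of all genes compared, 53.2% were higher by some amount and 0.854% by 2-fold. Summed over the list of 16, the level was 7877 CPM (aged) and 9846 CPM (aged-GA) in the members. It was also higher in aged-GA than in aged classical monocytes (10768 and 7642 CPM), B cells (6411 and 5189 CPM) and T cells (6756 and 6177 CPM), so the difference was not particular to nonclassical cells. Without the neutrophil-rich members 0 passed 2-fold and the median was 0.20. Egr1 stood at 85.7 CPM (young), 126 (aged) and 305 (aged-GA) (1.27, 1.05 to 1.51, aged-GA over aged), or 0.87 without those members. Dusp1, a phosphatase that limits MAP kinase signals, stood at 1500, 1482 and 2121 CPM (0.52, 0.44 to 0.59), and Fos at 677, 550 and 693 CPM (0.33, 0.20 to 0.46).

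Cytokine and chemokine genes depended on the neutrophil-rich members. Il1b, which encodes interleukin-1β, stood at 540 CPM (young), 666 (aged) and 1319 (aged-GA) (0.99, 0.88 to 1.09, aged-GA over aged). Without the neutrophil-rich members the ratio was 0.47. In the aged library those members carried Il1b at 3018 CPM and the others at 213 CPM, and in the aged-GA library 5057 and 294 CPM. Cxcl2, a neutrophil attractant, stood at 566, 505 and 1145 CPM (1.18, 1.07 to 1.30), and 69.7% of its young UMIs lay in 1 cell. Its ratio was 1.77 without the neutrophil-rich members, but 3 cells (71, 43 and 22 UMIs) then held 136 of the 170 aged-GA UMIs, and 21 of the 172 remaining cells had any. The value therefore describes a few barcodes and not the members at large. For aged over young, Il1b was 0.30 (0.04 to 0.58) over all members and -0.73 without the neutrophil-rich ones, and Cxcl2 was -0.16 and -1.69, so the direction of Il1b turned when those barcodes were left out. The remaining young members held 40 UMIs of Cxcl2, 20 of them in 3 cells.

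Il1b was found in 33.3% (young), 34% (aged) and 38.1% (aged-GA) of the members after thinning (39.6%, 45.7% and 49.0% without), against 0.0951%, 3.99% and 4.41% of B cells. The intervals of the 3 thinned shares overlapped (20 to 49.0, 29.4 to 38.8 and 31.3 to 45.2). They cover counting error within 1 library per group, and overlap is not a test. Whether the share of cells with Il1b differs between the groups was therefore not tested. Of the 11 genes of its list compared in aged-GA over aged, 1 (Cxcl2) was 2-fold higher and 0 lower, against 0.854% and 0.0949% of all genes. The median of the list was 0.36, or 0.11 without the neutrophil-rich members. Nfkbia was 0.28 (0.19 to 0.38) with and 0.11 without them.

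Genes of the glucocorticoid list were higher in aged-GA than in aged members in 9 of 9 cases, 1 of them (Il1r2) by 2-fold, with a median of 0.29. Among all genes compared, 53.2% were higher by some amount and 0.854% by 2-fold. The summed level of the list was 1505 CPM (aged) and 1854 CPM (aged-GA). It was also higher with GA in classical monocytes (1207 and 1304 CPM), B cells (1087 and 1229 CPM) and T cells (755 and 818 CPM). Without the neutrophil-rich members Il1r2 was below the filter and the other 8 had a median of 0.30. Fkbp5 (0.19, -0.17 to 0.55) and Tsc22d3 (0.36, 0.19 to 0.53) stayed below their young levels. The MHC class II genes H2-Aa (0.92, 0.71 to 1.13), H2-Ab1 (0.90, 0.69 to 1.12), H2-Eb1 (0.77, 0.53 to 1.01) and the invariant chain Cd74 (0.54, 0.44 to 0.64) were higher, none of them by 2-fold, and the list had a median of 0.65. With a marker sum of at least 3, which left 422 aged and 197 aged-GA members, H2-Ab1 was -0.01 and H2-Eb1 -0.18. With the screen for mixed cells all 4 turned to the other direction (-0.46, -0.70, -0.96 and -0.45), and the median was -0.46, or 1.04 with the immunoglobulin genes left out of the screen. Summed over the list, classical monocytes (3463 and 7738 CPM) and T cells (328 and 535 CPM) were also higher in the aged-GA library.

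**Figure D5:**
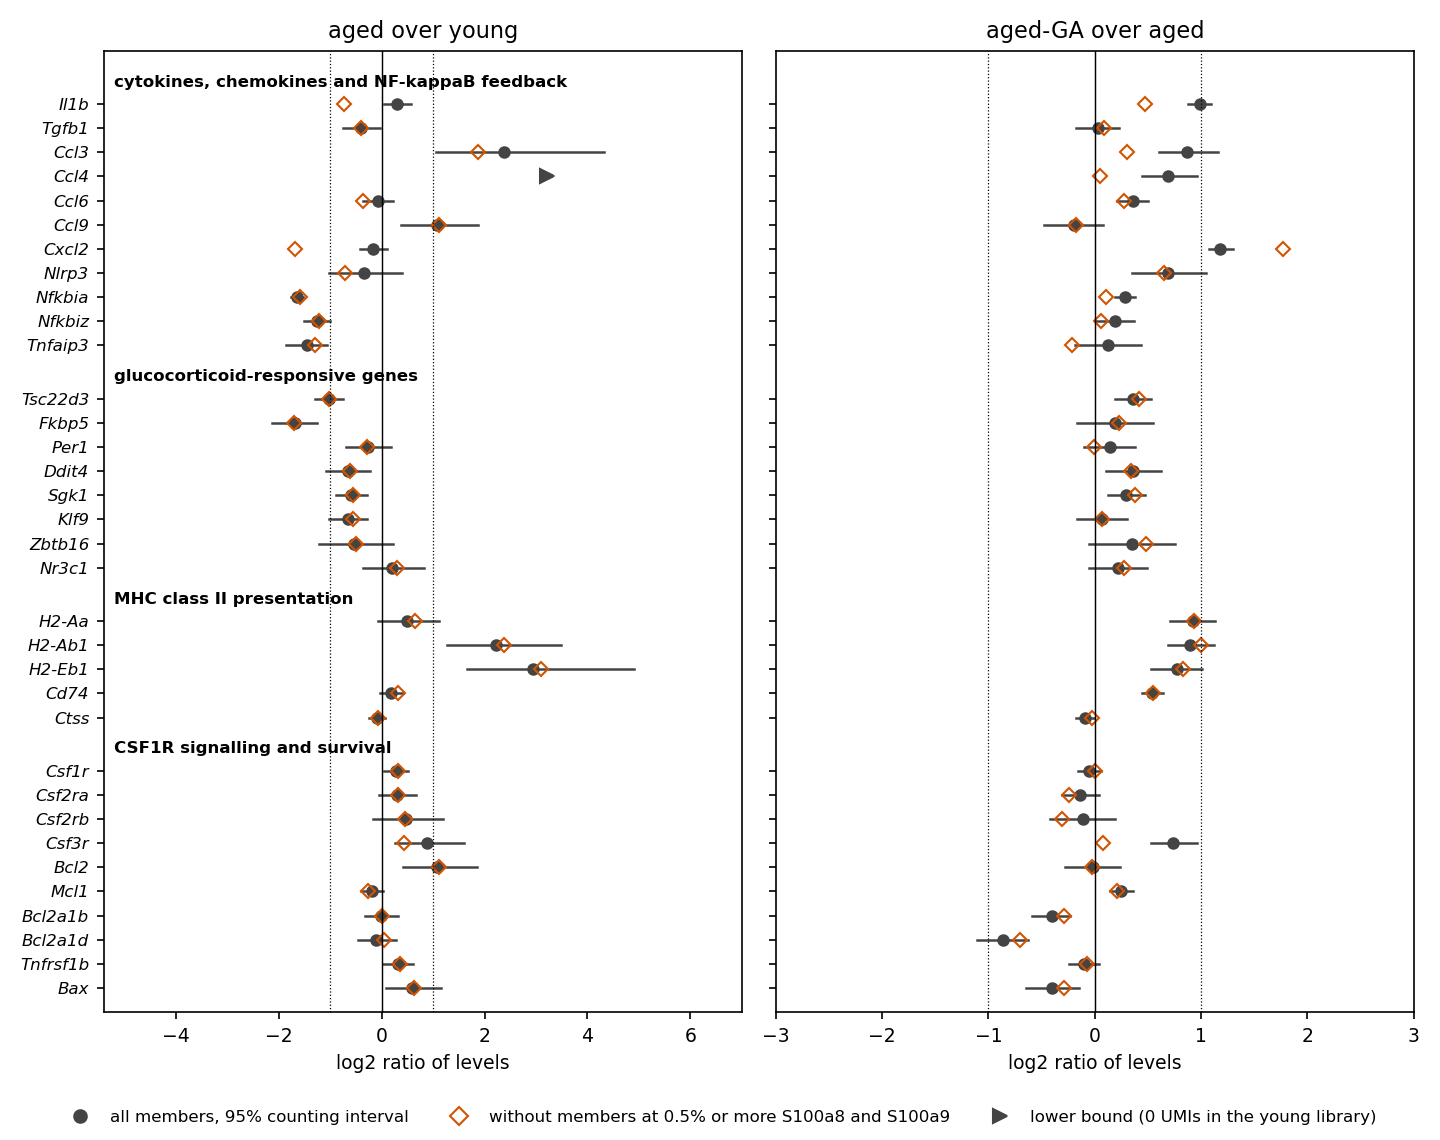
Log2 ratios of 4 gene lists in nonclassical monocytes, aged over young (left) and aged-GA over aged (right, another x scale), with 95% counting intervals for all members (filled) and values without members rich in neutrophil genes (open). The triangle is the lower bound of Ccl4, which had 0 UMIs in young members, and Nfkbia, Nfkbiz, Tnfaip3, Fkbp5 and Tsc22d3 lie left of -1 in the left panel.

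Among the genes highest in aged-GA members, several had few UMIs or came from few cells. Fgl2, which encodes a prothrombinase-like immune regulator, stood at 12.9 CPM (young), 25.4 (aged) and 99.1 (aged-GA) (1.92, 1.5 to 2.44). Ctla2a, a cysteine protease inhibitor, stood at 8.57, 59.3 and 225 CPM (1.91 with and without). Of the aged-GA UMIs of Fgl2, 50% lay in 10 cells, and of those of Ctla2a, 50% lay in 6. The decoy receptor gene Il1r2 (4.29, 41.5 and 147 CPM) and the chemokine receptor gene Ccr1 (4.29, 31.3 and 89.6 CPM) had ratios of 1.80 and 1.49. Without the neutrophil-rich members Fgl2 stood at 6.06 CPM (aged) and 28.5 CPM (aged-GA), Il1r2 at 1.51 and 26.3 CPM and Ccr1 at 1.51 and 16.5 CPM, all below the filter.

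Ltf (3.32), Camp (2.56) and Ngp (2.23), which encode granule proteins of neutrophils, were also among the highest in aged-GA over aged, with 93.9%, 94.9% and 85.6% of the aged-GA UMIs in 1 cell. Among 9 neutrophil markers, 3 (Camp, Ngp and Lcn2) passed 2-fold, against 0.854% of all genes higher, with a median of 0.74. With the neutrophil-rich members left out, Ltf turned to -0.14 and Ngp to -0.82, Camp was 0.36, and with the screen Ltf was -0.26 and Ngp -0.07. For Gzma, a granzyme of killer lymphocytes (1.66), 1 cell held 92.9% of the aged-GA UMIs. When both libraries lost their richest cell, the levels were 28.4 CPM (aged) and 11.2 CPM (aged-GA) and the ratio turned to -1.27. Hdc, histidine decarboxylase, stood at 17.1, 113 and 300 CPM (1.39). Its ratio for aged over young, 2.66, turned to -0.99 with the screen, again against the 1 young cell that held all 4 young UMIs, and was 1.80 with the immunoglobulin genes left out of it. Nrgn, neurogranin, stood at 8.57, 26.2 and 81.0 CPM (1.59) and H2-Q10, a class Ib gene, at 51.4, 26.7 and 76.7 CPM (1.49), and both were also higher in aged-GA classical monocytes (2.27 and 2.08).

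Genes lower in aged-GA members were few. Gstp1, a glutathione transferase, stood at 163 CPM (young), 77.9 (aged) and 24.1 (aged-GA) (-1.65, -2.32 to -1.11), and Lifr, the receptor of leukaemia inhibitory factor, at 94.3, 78.7 and 32.7 CPM (-1.24, -1.81 to -0.76). Gstp1 was also lower in B cells (-0.72), T cells (-0.63) and classical monocytes (-0.29), and Lifr in B cells (-0.86) and T cells (-0.71). Notch2, the receptor through which nonclassical monocytes are formed, stood at 437, 300 and 177 CPM (-0.75, -0.99 to -0.53), and its ratio was -0.64 in classical monocytes, -0.57 in B cells and -0.59 in T cells. Notch2 had the order young, aged, aged-GA, with intervals of the levels that did not overlap (356 to 531, 278 to 323 and 154 to 203 CPM). Other genes among the 10 with the lowest ratios did not pass 2-fold. Cd302, a C-type lectin receptor, was -0.94, with -1.20 in B cells and -0.85 in T cells, and Atp5md and Uqcrb, of ATP synthase and respiratory complex III, were -0.88 and -0.87, with -0.62 and -0.37 in B cells. Erh was -0.98, Hmox1, haem oxygenase, -0.87 and Vamp5, a vesicle protein, -0.86.

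The A1 genes, which encode relatives of BCL2 that protect myeloid cells from apoptosis, were lower in aged-GA than in aged members and close between aged and young. Bcl2a1a stood at 150, 161 and 87.9 CPM in young, aged and aged-GA members (-0.86, -1.20 to -0.55), Bcl2a1d at 304, 284 and 156 CPM (-0.86, -1.11 to -0.63) and Bcl2a1b at 403, 398 and 301 CPM (-0.40, -0.59 to -0.23). None passed 2-fold, and since the genes are copies with shared sequence, the level of each is uncertain. Cst3, which encodes cystatin C, an abundant protease inhibitor of monocytes, stood at 4693, 6431 and 4276 CPM (0.45 aged over young and -0.59 aged-GA over aged).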

How the data were processed

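One PBMC library per group was sequenced on the 10x droplet platform. Reads were mapped by the authors with Cell Ranger (5.0.0 in the matrix headers, mm10 in the submitters' processing notes), and the deposited matrices hold UMI counts without normalization: 58894294, 82260961 and 98155671 UMIs in 10842, 16038 and 17332 barcodes. From these, barcodes with at least 200 genes, at most 7.5% mitochondrial and under 20% haemoglobin UMIs were kept (8354, 9136 and 10843), and UMIs were summed over members. Levels are CPM, ratios are log2 of CPM plus 1, and genes needed a mean of 50 CPM over the libraries compared. The log2 scale with this pseudocount understates changes of low genes. B and T cells for comparison held at least 3 UMIs of their own rule genes. No doublet caller was run, and a screen for mixed cells, which removes members above 2 times the median UMIs or with at least 2 UMIs of B, T or natural killer cell markers, was an alternative. For shares of cells with a UMI, cells were thinned to 2000 UMIs. Intervals were exact (Poisson or Clopper-Pearson, with the exact conditional binomial for ratios), and a count of 0 was set against 3 UMIs.

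The members and the gene lists were chosen with earlier results of these data known. Named genes were those of the rule and lists, and the 10 genes with the largest ratio in each direction for aged over young and aged-GA over aged, and 15 for nonclassical over classical, without haemoglobin, mitochondrial, ribosomal, immunoglobulin and T-cell receptor genes. Genes of the rule are described only. List genes and genes of the nonclassical over classical ranking that are not printed singly were below the filter or enter the counts, and 1 gene is not reported here. The sums were tested on simulated data: of 200 genes set 4-fold apart, 198 (99.0%) came past 2-fold for aged over young and 200 for aged-GA over aged, with 24 and 0 other genes past it. The changed genes were drawn from those at 100 CPM or more in aged members. The simulated sums held counting error only, without UMIs gathered in single cells. The simulation therefore checks the calculation and gives no error rate for the counts of genes past 2-fold. Alternatives changed the filters on cells and genes, the rule, the pseudocount and the members. Python 3.11.15, numpy 2.4.6, scipy 1.17.1, pandas 2.3.3 and matplotlib 3.10.9 were used. Promoter windows came from RefSeq (GRCm38.p6) and gene positions from GENCODE M21.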

Additional observations from a re-analysis of the deposited data

How the results depend on the processing

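The direction of the share of nonclassical monocytes was kept under every alternative run. Its log2 ratio for aged over young was 2.39 with the screen for mixed cells, which removed 10 young, 220 aged and 127 aged-GA members, and 2.62 over all deposited barcodes. For aged-GA over aged it was -1.75 with the screen. A screen without immunoglobulin genes, chosen after seeing the data as were the others named so below, removed 3, 88 and 38 members and gave 2.83 and -1.32. The counts of genes past 2-fold moved with the filter on levels. For aged over young, 109 genes became 457 at a filter of 20 CPM, 35 at 100 CPM and 192 with the screen. Without the richest barcode of each gene the split of 64 higher and 45 lower became 122 and 19, and the median of all genes moved to 0.19. For aged-GA over aged, 30 became 65 at 20 CPM, 10 at 100 CPM, 50 with the screen, 10 without members rich in neutrophil genes and 16 when each gene lost its richest barcode, the last 2 chosen after seeing the data. For nonclassical over classical, 275 became 417 at 20 CPM and 168 at 100 CPM. Some genes changed direction. Gzma, aged-GA over aged, was -2.01 with a marker sum of at least 3 and -1.27 when each library lost its richest barcode. With the screen, aged over young, Lcn2 and Wfdc21 were -0.25, Hdc was -0.99 and the neutrophil markers had a median of -0.36. These values rest on 1 young cell, and without immunoglobulin genes in the screen they were 1.38, 0.97, 1.80 and 0.77. S100a8 was -0.61 and S100a9 -1.30, or 0.85 and 0.46. With the screen, aged-GA over aged, Ltf was -0.26 and Ngp -0.07, and without members rich in neutrophil genes they were -0.14 and -0.82. The 20 genes with the largest ratios in each comparison and the other list genes past 2-fold (15 and 4) gave 590 values under alternatives, of which 515 moved by less than their counting error, 64 by more and 11, all of genes past 2-fold, changed direction; the cause was not tested. Some list genes below 2-fold whose counting interval left out 0 also turned, among them Il1b, aged over young, from 0.30 to -1.14 with the screen, -0.33 with the screen without immunoglobulin genes and -0.73 without members rich in neutrophil genes, and, aged-GA over aged, 9 genes with the screen, among them H2-Aa, H2-Ab1, H2-Eb1 and Cd74, and 3 with the screen without immunoglobulin genes (Ccl3, Ccl4 and Retnlg). With a marker sum of at least 3, H2-Ab1 was -0.01 and H2-Eb1 -0.18. In young members 3 UMIs equal 12.9 CPM, which limits what could be seen there. No paired analysis was possible because each group has 1 library.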
